A study of Mus musculus with 6 samples.

Results

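The gp130 cytokines and their receptors were followed in RNA of the mouse cochlear modiolus, the bone at the centre of the cochlea, in which the cell bodies of the spiral ganglion neurons (SGNs) lie. The members were 9 gene symbols taken from a list: the ligands Il11, Il6, Lif, Cntf and Clcf1 and the receptor subunits Il6st, Il11ra1, Lifr and Osmr. Of these, 8 had at least 1 transcript in the table of counts, out of 33676 genes in all, and 6 passed the filter on low counts. Il6 and Clcf1 did not pass it, and Cntf had no row and was not analysed here. The table listed 20 of the 50 annotated transcripts of the members, and 10 of these could be tested on their own.

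The control group comprised 3 libraries from C57BL/6 mice given saline. The degenerated group comprised 3 libraries from C57BL/6 mice given 1 g/kg kanamycin and, after 30 min, 0.4 g/kg furosemide, a treatment that destroys the hair cells and is followed by SGN degeneration. Per the study's methods, the mice were 8 weeks old and the comparison concerned day 30 after the drugs. The labels name the cell type as spiral ganglion neuron, but the tissue was the whole modiolus, and no source used here says whether a library came from 1 or several animals. The p-values below therefore measure only the spread between these libraries, which may be technical.

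Cytokines of this family signal through gp130, the receptor subunit encoded by Il6st. IL-6 and IL-11 first bind a receptor of their own and then recruit gp130, whereas LIF, CNTF and CLCF1 use gp130 together with the LIF receptor, and oncostatin M uses gp130 with OSMR or the LIF receptor. Engagement of gp130 activates JAK kinases and the transcription factor STAT3, and SOCS3 switches the signal off. In injured peripheral nerve, LIF is known as a signal from Schwann cells to axotomised neurons and CNTF as a Schwann cell product.

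Il11 and Lif were the members called higher in the degenerated libraries, and their upstream sequences are shown because they rose together. The sequences are from RefSeq on the GRCm38.p6 assembly, 250 bases in the direction of transcription up to the start site, and capitals mark the match to TGANTCA, the core letters bound by AP-1 factors. The Il11 window, chr7:4778142-4778391 on the minus strand, ended just before the first base of Il11-201, the only Il11 transcript with counts here. The Lif window, chr11:4257318-4257567 on the plus strand, overlapped the first bases of the annotated Lif-202. As a transcript, Lif-202 was not called higher (log2 fold change 1.27). Lif-201, which held 92.0% of the Lif counts of degenerated 2, starts at another first exon, chr11:4267095-4267119, and no window lay at that start.
Il11: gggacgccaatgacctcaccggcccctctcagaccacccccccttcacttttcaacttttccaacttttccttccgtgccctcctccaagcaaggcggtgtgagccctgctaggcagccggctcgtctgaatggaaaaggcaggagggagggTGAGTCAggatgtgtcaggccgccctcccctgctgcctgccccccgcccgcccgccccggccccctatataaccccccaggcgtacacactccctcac
Lif: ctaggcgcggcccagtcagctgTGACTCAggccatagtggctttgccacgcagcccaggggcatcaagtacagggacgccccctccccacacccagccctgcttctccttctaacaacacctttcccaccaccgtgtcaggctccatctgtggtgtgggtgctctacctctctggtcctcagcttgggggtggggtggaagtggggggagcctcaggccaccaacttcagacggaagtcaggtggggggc

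The match TGAGTCA in Il11 began 98 bases before the start site and the match TGACTCA in Lif 228 bases before it. RefSeq gave 11 windows for 8 of the members and none for Clcf1. TGANTCA, whose reverse complement is the same pattern, was found in 4 of the 11 windows, those of Il11, Il6, Lif and Cntf, and in 6.75% of the 32851 windows of all genes. The second Il11 window, upstream of transcripts that had no row, held no match. The STAT-type pattern TTCNNNGAA was in 0 of the 11 windows and in 7.02% of all windows. TGACGTCA was also in 0 of the 11 windows, against 1.55% of all. TTGCNNAA, searched on both strands, was in the Il6 window only, against 9.56% of all windows. These matches describe letters and not binding.

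Values are CPM, the counts of a library scaled to its total and normalized for composition, for the listed transcripts of a gene. Calls needed an unadjusted p under 0.01 in the quasi-likelihood test of edgeR and a log2 fold change, degenerated over control, larger than 0.2 in size. This rule called 2 of the 6 tested members higher and 0 lower, whereas over all 14118 tested genes it called 2.73%, with 2.01% higher and 0.715% lower. The members were chosen with earlier results of these data known, so setting them against all genes, here and below, is a description and not a test. After Benjamini-Hochberg adjustment, edgeR's test left 0 genes, members included, with an adjusted p under 0.05. Its unadjusted p was under 0.05 for 1367 genes, or 9.68%, while DESeq2 gave 383 genes and limma-voom 0 genes an adjusted p under 0.05. The values of the groups did not overlap for 3 tested members that were higher, against 10.3% of all genes, and for 1 that was lower, against 7.37%. The median log2 fold change was 0.67 over the 6 tested members and -0.0034 over all genes, but 3 members lay above 0 and 3 below. It was 1.88 over the 2 tested ligands and -0.45 over the 4 receptors, so 0.67 describes no common shift. By an exact permutation test of a single gene, 3 libraries against 3 cannot give a two-sided p below 0.1.

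Libraries held 12480876 to 15549319 counts. The sum of 14 SGN marker genes was 11916 to 15170.4 CPM in control and 7030.3 to 10414 CPM in degenerated libraries, without overlap, and SGN RNA was thus present in each library. The markers did not all fall: 9 had a log2 fold change below 0 and 5 above 0, from -1.07 to 3.07, with a median of -0.39. Groups did not overlap for 7 that were lower, against 7.37% of all genes, and 2 that were higher, against 10.3%. Called lower were 2, against 0.715%, and called higher 0, against 2.01%. Hair cell markers summed to 679 to 967 CPM in control and 478 to 611 CPM in degenerated libraries, with Chrna9 at 0, and 5 fibroblast markers to 1898 to 2366 and 1434 to 1749 CPM. Of the 7 hair cell markers tested, 6 had a log2 fold change below 0 and 1 above, with a median of -0.56 and a lowest value of -5.83. Of these 7, 2 were called lower, against 0.715% of all genes. Of the 3 fibroblast markers tested, 2 had a log2 fold change below 0 and 1 above, with a median of -0.47. Of these 3, 0 were called, and Dcn, Lum and Dpt had no row. The sums of 6 Schwann and satellite glia markers overlapped, at 5414 to 9591 and 4778 to 7551 CPM, as did those of 9 macrophage markers, at 942 to 2797 and 1722 to 3118 CPM. Of the 8 macrophage markers tested, 4 had a log2 fold change above 0 and 4 below, with a median of 0.09 and a lowest value of -1.54. C1qb and C1qc, named after their values were seen, were called higher without overlap, against 2.01% of all genes called higher, and 0 were called lower. The markers of B cells (56.3 to 912 and 133 to 527 CPM), T and NK cells (14.4 to 54.1 and 24.3 to 45.0 CPM), erythroid cells (6392 to 40666 and 3463 to 16287 CPM), bone (5440 to 7607 and 5742 to 6273 CPM), endothelium (117 to 145 and 139 to 158 CPM) and muscle (2.58 to 378 and 1.13 to 4.42 CPM, Myh2 at 0) also overlapped between groups. As single genes, all 6 erythroid, 5 B cell and 6 neutrophil markers tested had a log2 fold change below 0. Their medians were -1.29, -0.65 and -1.53. Of the 6 T and NK cell markers tested, 4 lay below 0 and 2 above. All 4 endothelial markers tested lay above 0, with a median of 0.099. In these lists 0 were called higher or lower, against 2.01% and 0.715% of all genes. Gene by gene, all 6 bone markers tested had a log2 fold change below 0, with a median of -0.94. Of these, 4 did not overlap between groups, against 7.37% of all genes, and 2, Bglap and Bglap2, named after their values were seen, were called lower, against 0.715%. The part of SGN, hair cell, fibroblast, bone, macrophage, blood cell and endothelial RNA in the values of Il11, Lif, Lifr and Cntfr was not tested.

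**Figure D1:**
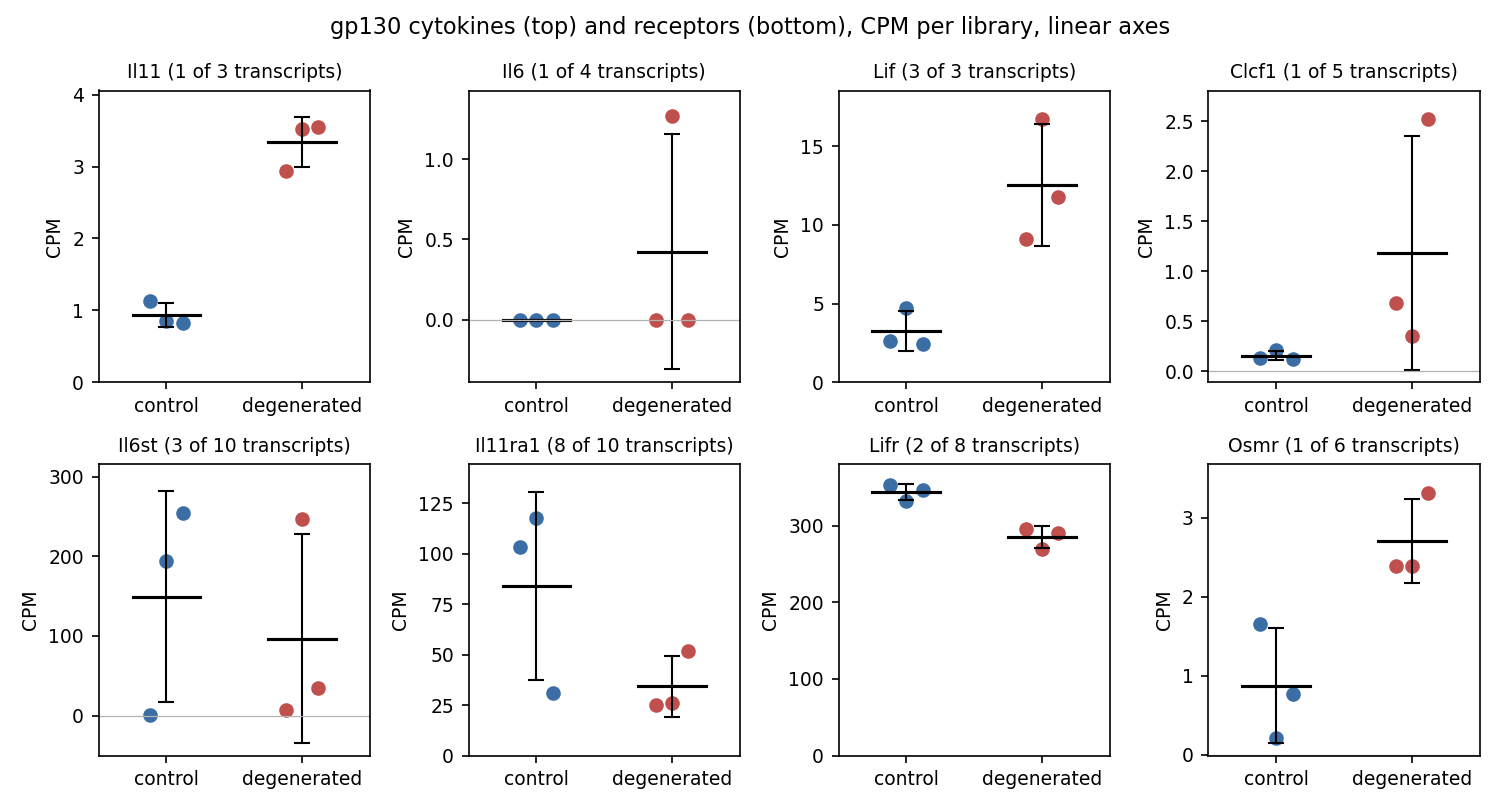
CPM of the 8 members with a row, on linear axes, with 1 point per library, a bar for the mean and error bars of 1 SD (3 libraries per group). Il11 lies at 0.829 to 1.13 CPM in control and 2.94 to 3.55 CPM in degenerated libraries, and Il6st spreads from 0.199 to 254 CPM within the control group alone.

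Il11 encodes interleukin 11, a cytokine of stromal cells with roles in bone and fibrosis, and lies at chr7:4772373-4782859 (GRCm38, minus strand). Its level was 1.13, 0.849 and 0.829 CPM in the control libraries and 2.94, 3.52 and 3.55 CPM in the degenerated libraries. All degenerated libraries lay above all control libraries. These levels rested on few reads, 12 to 17 counts in a control library and 43 to 50 in a degenerated one. Il11 rose 3.57-fold, from a mean of 0.935 ± 0.165 CPM in control to 3.34 ± 0.344 CPM after degeneration (± SD, n = 3). The log2 fold change was 1.83 with an SE of 0.33, a quasi-likelihood p of 0.00130 and a Benjamini-Hochberg value of 0.240 (edgeR). Il11 was called in all 13 alternatives, with adjusted p from 0.00512 to 0.602 and a log2 fold change of 1.74 to 1.97 without any 1 library. In bulk tissue, a change in the number of cells of a type and a change of RNA per cell cannot be told apart, which holds for each difference here.

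Lif (chr11:4257557-4272514, plus strand) encodes leukemia inhibitory factor. It measured 2.65, 4.74 and 2.42 CPM in control and 9.10, 16.8 and 11.8 CPM in degenerated libraries. The groups did not overlap, and the lowest degenerated library was well above the highest control library. The mean of Lif went from 3.27 ± 1.28 to 12.5 ± 3.89 CPM (± SD, n = 3), a 3.83-fold rise. On the log2 scale the fold change was 1.94 with an SE of 0.42, a quasi-likelihood p of 0.00326 and a Benjamini-Hochberg value of 0.307 (edgeR). The direction held without any 1 library, at 1.66 to 2.30, but the call was lost without control 1 (1.79, p of 0.0140), control 3 (1.75, p of 0.0142) or degenerated 2 (1.66, p of 0.0133).

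The counts of Lif were split between transcripts in a way that differed from library to library. Lif-202 is the full-length transcript, which starts at the upstream first exon and encodes the secreted precursor. Lif-201 starts in a later first exon and is annotated with a shorter coding sequence, 474 bases against 609, all of which Lif-202 shares. The first 60 coding bases of each show the difference, with capitals for coding bases that are absent from the Lif-201 coding sequence.
Lif-201: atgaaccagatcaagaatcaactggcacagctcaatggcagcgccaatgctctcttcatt
Lif-202: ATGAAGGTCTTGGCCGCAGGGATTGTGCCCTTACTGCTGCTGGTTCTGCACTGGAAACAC

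Lif-202 had 40, 63 and 22 counts in control libraries and 128, 8 and 149 counts in degenerated libraries. Lif-201 had 0, 0 and 15 counts in control and 0, 219 and 0 counts in degenerated libraries, so that it held 92.0% of the Lif counts of degenerated 2 and 39.5% of those of control 3. Lif-203, a processed transcript, had 0, 4 and 1 counts in control and 5, 11 and 0 counts in degenerated libraries. Lif-202 alone was not called (log2 fold change 1.27, p of 0.279), and the groups overlapped because of degenerated 2. Of the 3798 bases of Lif-201, 99.3% are shared with Lif-202. Degenerated 2 had the most Lif counts and also nearly all of the Lif-201 counts, and how the counts were assigned between these transcripts was not tested.

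Il6 (chr5:30013114-30019981, plus strand), the founding cytokine of the family, had 0 counts in 5 libraries and 18 counts, or 1.27 CPM, in degenerated 2. A count of 0 allows up to 3 counts, which was 0.191 to 0.237 CPM in these libraries. The signal thus came from 1 library, from the only listed transcript of 4. Fitted without the filter, the group difference of Il6 had a p of 0.104 in edgeR's fit, and no fold is given against libraries at 0. Clcf1 (chr19:4214238-4223490, plus strand) encodes a ligand of the CNTF receptor. It had 2, 3 and 2 counts in control and 10, 5 and 32 counts in degenerated libraries, or 0.132, 0.212 and 0.128 against 0.684, 0.352 and 2.53 CPM. The groups did not overlap, but the gene failed the filter on low counts and the control values lay near the floor of 3 counts. Fitted without the filter, Clcf1 had a log2 fold change of 2.84, an SE of 0.91, a quasi-likelihood p of 0.0180 and a Benjamini-Hochberg value of 0.584 (edgeR), which was no call. Its only listed transcript, Clcf1-204, is annotated as a target of nonsense-mediated decay and shares 1780 of its 1878 bases with Clcf1-201, which had no row.

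Among the receptors, no gene was called in either direction. Il6st (chr13:112464070-112510086, plus strand) encodes gp130 itself. It measured 0.199, 194 and 254 CPM in control and 7.39, 247 and 35.3 CPM in degenerated libraries. Each group thus held high and low libraries, and the groups overlapped. The log2 fold change was -0.63 with an SE of 1.88 (p of 0.749), and it turned to 0.84 with limma-voom. Without degenerated 2 it was -2.82 and without control 3 it was -0.04, and leaving out the other libraries gave -1.23 to -0.09. Nearly all counts were of Il6st-201, with 2, 2709 and 3978 counts in control and 99, 3480 and 416 counts in degenerated libraries. Il6st-208 had 0, 34 and 5 counts in control and 8, 27 and 29 counts in degenerated libraries, and Il6st-205 had 1 to 2 counts in each library. Of the 5207 bases of Il6st-201, 99.6% are shared with Il6st-203, a longer transcript without a row that was not analysed here. The level of gp130 RNA as a whole was therefore not measured by these rows, and a difference of either sign could not be detected with this spread.

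Il11ra1 (chr4:41699989-41769474, plus strand) encodes the receptor of IL-11. Its level was 104, 118 and 31.1 CPM in control and 24.9, 26.3 and 51.8 CPM in degenerated libraries. Control 3 lay among the degenerated libraries, so the groups overlapped. The log2 fold change was -1.30 with an SE of 0.56, a quasi-likelihood p of 0.0601 and a Benjamini-Hochberg value of 0.547 (edgeR). Without control 3 it was -1.70 with a p of 0.00737 and was called lower, and the 2 members called were then Il11 and Il11ra1. Il11ra2, a near-identical copy of the gene, had no row, so reads of the copies may be divided in a way that the counts do not show.

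In control libraries the largest part of Il11ra1 was Il11ra1-204, with 79.2%, 83.5% and 44.5% of the gene's counts, but it held 28.6%, 25.7% and 18.0% in degenerated libraries, below Il11ra1-210 in degenerated 1 and 2 and below Il11ra1-202 in degenerated 3. This transcript starts at a first exon of its own, chr4:41762309-41762423 on GRCm38, and encodes the same protein as Il11ra1-202. It had 1239, 1392 and 217 counts in control and 104, 96 and 118 counts in degenerated libraries. The lowest control library was above the highest degenerated library. As a transcript it was called lower, with a log2 fold change of -3.11, an SE of 0.75, a quasi-likelihood p of 0.00683 and a Benjamini-Hochberg value of 0.527 (edgeR). The call was lost with limma-voom (-2.66, p of 0.0489) and without any 1 library other than control 3, with values between -3.28 and -2.68. Without control 3 the call was kept, at -3.59. Il11ra1-202 had 5, 2 and 2 counts in control and 1, 2 and 426 counts in degenerated libraries, or 64.9% of the gene's counts in degenerated 3. The pair share 12 exons and 1653 bases, and so does Il11ra1-201, which had no row.

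The retained-intron transcripts of Il11ra1 that could be tested were not called. Il11ra1-207 had 128, 80 and 108 counts in control and 97, 71 and 86 counts in degenerated libraries, and Il11ra1-210 had 180, 179 and 136 against 135, 172 and 16 counts. Their log2 fold changes were -0.23 (p of 0.513) and -0.60 (p of 0.472). Il11ra1-203, Il11ra1-205, Il11ra1-208 and Il11ra1-209 had at most 14 counts in any library and were not tested.

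Lifr (chr15:7090614-7197489, plus strand) encodes the LIF receptor, which LIF, CNTF and CLCF1 share. It had 353, 332 and 346 CPM in control and 296, 269 and 291 CPM in degenerated libraries. All degenerated libraries lay below all control libraries, with a spread far narrower than that of Il6st or Il11ra1. The means were 344 ± 10.9 and 285 ± 14.5 CPM (SD, n = 3 each), a ratio of 0.830. Lifr had a log2 fold change of -0.27 with an SE of 0.09, a quasi-likelihood p of 0.0251 and a Benjamini-Hochberg value of 0.439 (edgeR), short of a call. DESeq2 alone called it lower (-0.28, p of 0.00747). The summed level of the SGN markers was also below control in each degenerated library, although 5 of the 14 markers had a log2 fold change above 0. The part of SGN RNA in the values of Lifr was not tested. Lifr-203 carried most of the counts, 5247, 4608 and 5371 in control and 4222, 3719 and 3626 in degenerated libraries (log2 fold change -0.32, p of 0.0134). Lifr-201 had 85, 81 and 59 counts in control and 108, 99 and 60 in degenerated libraries (0.29, p of 0.453).

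Osmr (chr15:6813577-6874969, minus strand) encodes the oncostatin M receptor. Its only listed transcript, Osmr-202, is annotated with a retained intron and without a coding sequence. The gene measured 1.65, 0.212 and 0.766 CPM in control and 2.39, 2.39 and 3.31 CPM in degenerated libraries. The groups did not overlap, at 3 to 25 counts in control and 34 to 42 counts in degenerated libraries. Its log2 fold change was 1.61 with an SE of 0.69, a quasi-likelihood p of 0.0579 and a Benjamini-Hochberg value of 0.542 (edgeR), and it was not called. It was 2.43 without control 1 and 1.15 without control 2, which rests on 3 counts.

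**Figure D2:**
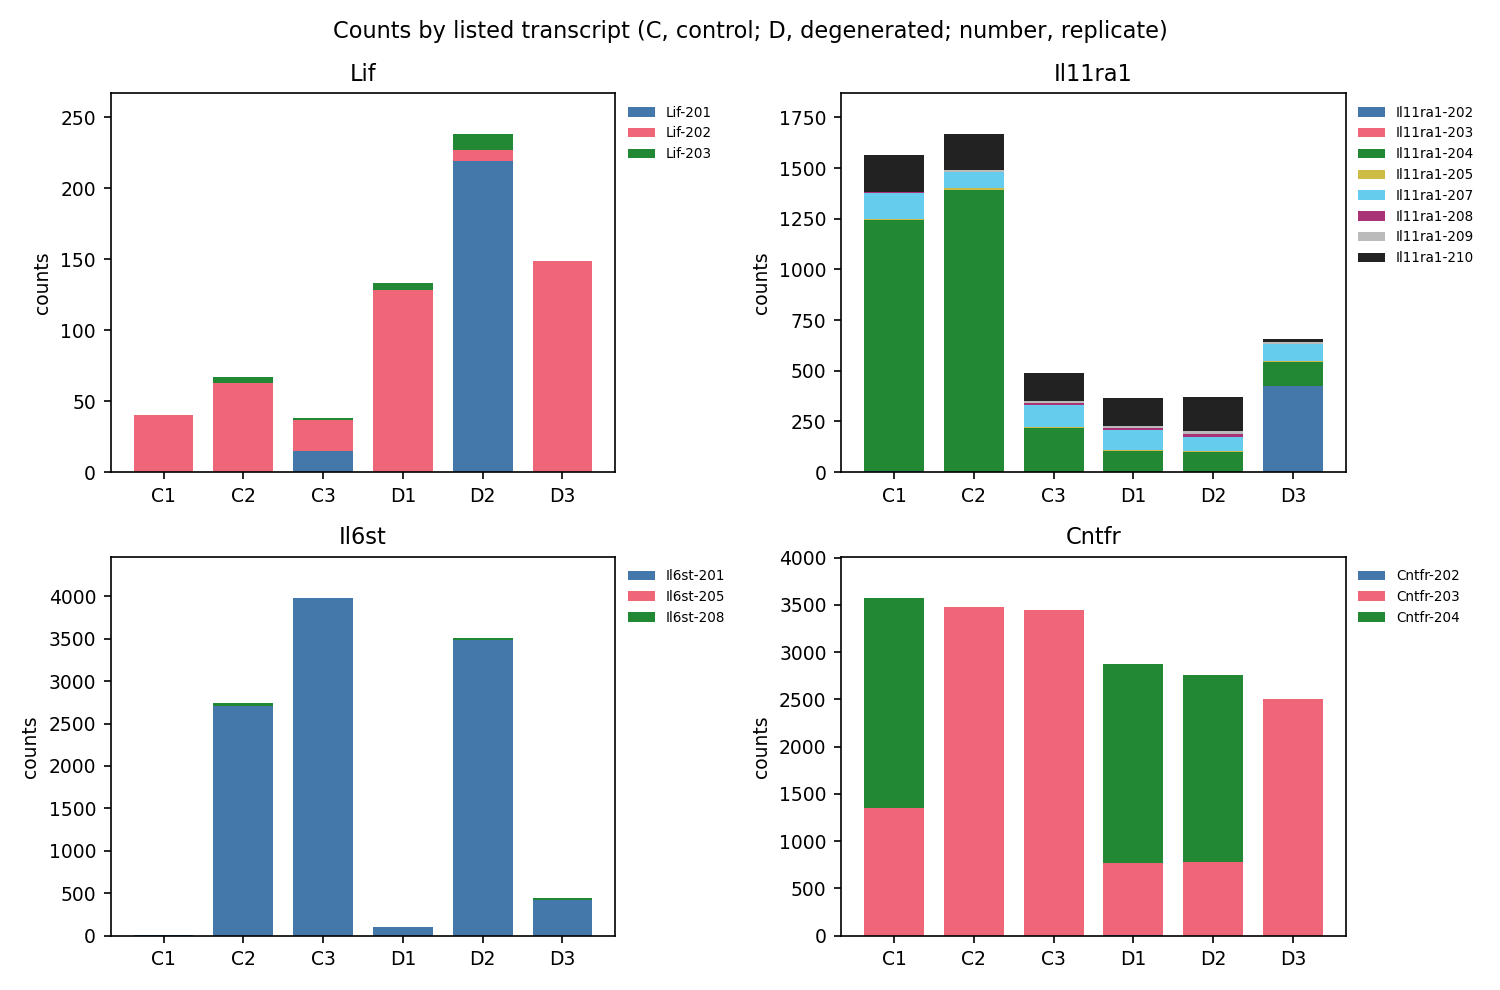
Counts of each listed transcript of Lif, Il11ra1, Il6st and Cntfr, stacked by library (C, control; D, degenerated). Lif-201 holds 219 of the 238 Lif counts of degenerated 2, Il11ra1-204 is at 1239 and 1392 counts in controls 1 and 2 and at 217 in control 3, and Cntfr-204 is at 0 in 3 of the 6 libraries.

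Transcript by transcript, 1 of the 10 tested member transcripts was called higher (Il11-201) and 1 lower (Il11ra1-204). Over all 26065 tested transcripts, 1.79% were called, with 1.14% higher and 0.652% lower. After Benjamini-Hochberg adjustment, 4 transcripts (0.0153%) had an adjusted p under 0.05 in edgeR, none of a member. Il11-201 had a log2 fold change of 1.78, an SE of 0.34, a quasi-likelihood p of 0.00195 and a Benjamini-Hochberg value of 0.380 (edgeR, adjusted over transcripts). Its counts are those of the gene, but the p without control 2 (0.0101) or control 3 (0.0101) fell just short of a call. Il11-201 and Osmr-202 were higher and Il11ra1-204 and Lifr-203 lower without overlap between the groups, against 9.13% and 7.24% of all transcripts.

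Per length, in TPM, counts divided by transcript length and scaled to a common total over the listed transcripts, the order of the members in control libraries put Il11ra1, Lifr and Il6st above the ligands and Osmr among them. Control means were 101 TPM for Il11ra1, 66.4 for Lifr and 51.3 for Il6st, with ranges that overlapped between neighbours in this order, and Il6st was at 0.453 TPM in control 1. Lif followed at 1.94 TPM, Il11 at 0.883, Osmr at 0.778 and Clcf1 at 0.152, while Il6 was at 0. The lowest control value of Lif, 1.29 TPM, lay above the highest of Il11, 1.13 TPM, whereas the ranges of Il11, Osmr and Clcf1 overlapped between neighbours. In degenerated libraries the means were 8.07 TPM for Lif, 3.38 TPM for Il11 and 2.49 TPM for Osmr. Because the list of transcripts is partial, a TPM value is that of the listed part of a gene.

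Of 10 further ligands and receptor subunits of the family that were examined, 7 had a row and all 7 were tested. In edgeR 0 were called in either direction, against 2.73% of all genes. The unadjusted p of edgeR was under 0.05 for 1 of them, Cntfr, against 9.68% of all genes. Cntfr encodes the receptor that binds CNTF and CLCF1. It had 237, 246 and 220 CPM in control and 197, 194 and 198 CPM in degenerated libraries. The degenerated libraries were all lower, by a narrow margin and without overlap. For the gene, the log2 fold change was -0.26 with an SE of 0.09, a quasi-likelihood p of 0.0310 and a Benjamini-Hochberg value of 0.465 (edgeR), which was no call. Its counts moved between transcripts with other first exons: Cntfr-203 had 1350, 3476 and 3449 counts in control and 767, 784 and 2504 counts in degenerated libraries, and Cntfr-204 had 2228, 0 and 0 against 2107, 1973 and 0 counts. The pair share 9 exons and 1863 bases, and their sum varied far less than either.

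None of the other ligands and receptors examined was called, beside 2.73% of all genes. Osm, oncostatin M, had 1.72, 20.8 and 6.96 CPM in control and 1.85, 5.56 and 7.66 CPM in degenerated libraries (log2 fold change -0.97, p of 0.348). Its value turned to 0.21 without control 2. Il27, a subunit of interleukin 27, had a log2 fold change of -1.26 (p of 0.168) and its receptor Il27ra -0.03 (p of 0.975), which turned positive with limma-voom (0.59). Control 1 had the lowest values of Osm, Il27 and Il27ra, and it also had the lowest sum of 6 neutrophil markers, 248 CPM against 13358 and 6617 CPM in controls 2 and 3 and 625 to 4615 CPM in degenerated libraries. The part of these cells in the values was not tested.

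Cardiotrophin 1, Ctf1, had a log2 fold change of 0.19 (p of 0.285), and Il6ra, the IL-6 receptor, -0.33 (p of 0.412). Ctf2 had 0.993, 0.920 and 1.28 CPM in control and 1.85, 1.69 and 1.66 CPM in degenerated libraries. The groups did not overlap, but the gene was not called (0.70, p of 0.0847). The ends of Ctf1 and Ctf2 overlap on opposite strands, and the library kit does not mark strand, so reads there cannot be told apart. Ebi3, Il11ra2 and Il31ra had no row and were not analysed here.

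**Figure D3:**
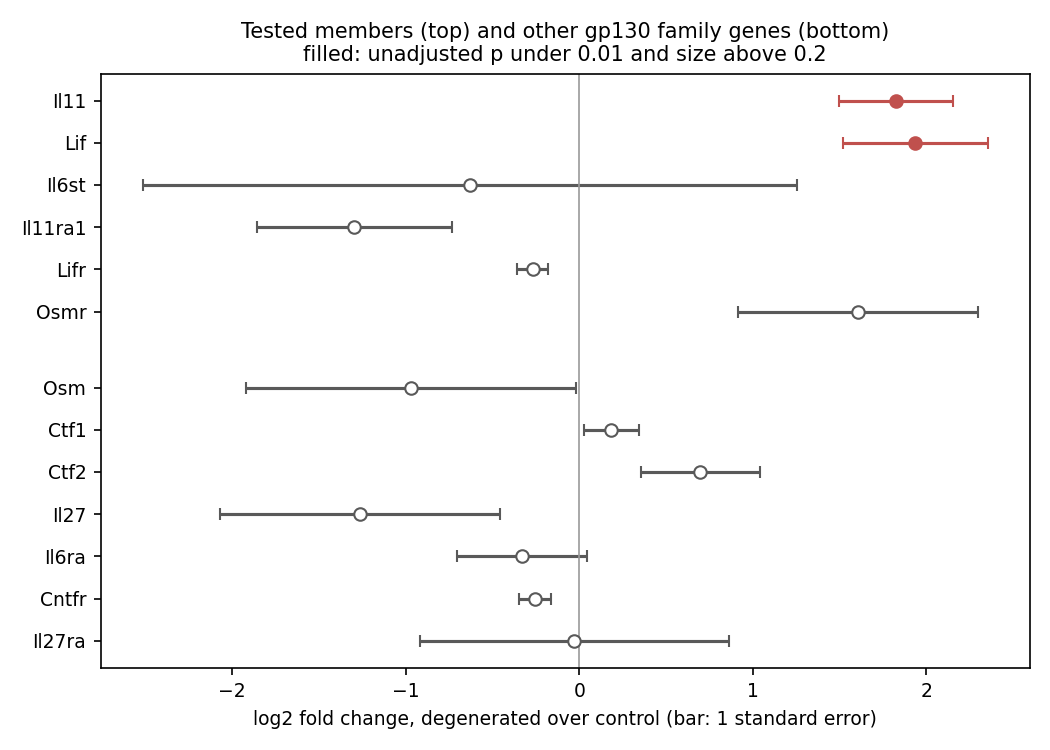
Log2 fold change, degenerated over control, of the 6 tested members (top) and 7 other genes of the family (bottom), with bars of 1 SE. Filled points for Il11 (1.83) and Lif (1.94) mark calls, and the bar of Il6st (SE 1.88) is the widest.

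Downstream of gp130, a list of 24 genes held the JAK kinases, STAT factors, adaptors, shedding proteases and inhibitors. Of these, 23 were tested and Jak2 had no row. The test called 1 higher and 0 lower, against 2.01% and 0.715% of all genes. Of the tested genes 16 had a log2 fold change above 0, against 49.7% of all genes, and the median was 0.18 against -0.0034. This list was chosen with earlier results of these data known, so its comparison with all genes is a description and not a test. Stat3, the main transcription factor of the pathway, was the gene called. It had 198, 216 and 218 CPM in control and 362, 351 and 332 CPM in degenerated libraries. All degenerated libraries lay far above the controls, with little spread. Stat3 rose, with a log2 fold change of 0.73, an SE of 0.09, a quasi-likelihood p of 0.000220 and a Benjamini-Hochberg value of 0.138 (edgeR), and Stat3 was called in all 13 alternatives. The groups did not overlap for 5 of the 23 genes, all higher, against 10.3% of all genes. Beside Stat3 these were Stat5b, Ptpn11, Gab1 and Adam10, named after their values were seen. Socs3, a target of STAT3 that inhibits gp130 signalling, had 3 to 19 counts in control and 8 to 16 counts in degenerated libraries (0.41, p of 0.593). These counts came from the only listed transcript of 3, so the level of Socs3 RNA as a whole was not measured.

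A list of 28 genes known to respond to gp130 and STAT3 signals in other tissues held 21 that were tested. Of these, 3 were called higher and 0 lower, against 2.01% and 0.715% of all genes. A log2 fold change above 0 was found for 17, against 49.7% of all genes, and the median was 0.41 against -0.0034. The groups did not overlap for 7, all higher, against 10.3% of all genes. The 4 genes below 0, named after their values were seen, were Hp (-1.01), Lcn2 (-0.63), Timp1 (-0.38) and Junb (-0.02). Their groups overlapped. Cebpb, Ccl2, Fgb and Gal had no row. Serpina3n, a serine protease inhibitor of the acute phase, had 5.76, 4.60 and 12.8 CPM in control and 134, 111 and 49.6 CPM in degenerated libraries (log2 fold change 3.67, SE 0.57, p of 0.000688). Sprr1a, a protein of regenerating axons, had 1.99, 0.141 and 1.53 CPM in control and 21.0, 22.8 and 27.5 CPM in degenerated libraries (4.27, SE 0.85, p of 0.00237). Atf3, a transcription factor induced in injured neurons, had 43.8, 35.2 and 26.4 CPM in control and 102, 90.5 and 100.2 CPM in degenerated libraries (1.48, SE 0.21, p of 0.000394). For Serpina3n, Sprr1a and Atf3 the groups did not overlap, and all 3 were called in all 13 alternatives. Benjamini-Hochberg values of edgeR were 0.211 for Serpina3n, 0.277 for Sprr1a and 0.175 for Atf3. The list was chosen with results for these genes known, and it also holds genes that move with other signals.

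**Figure D4:**
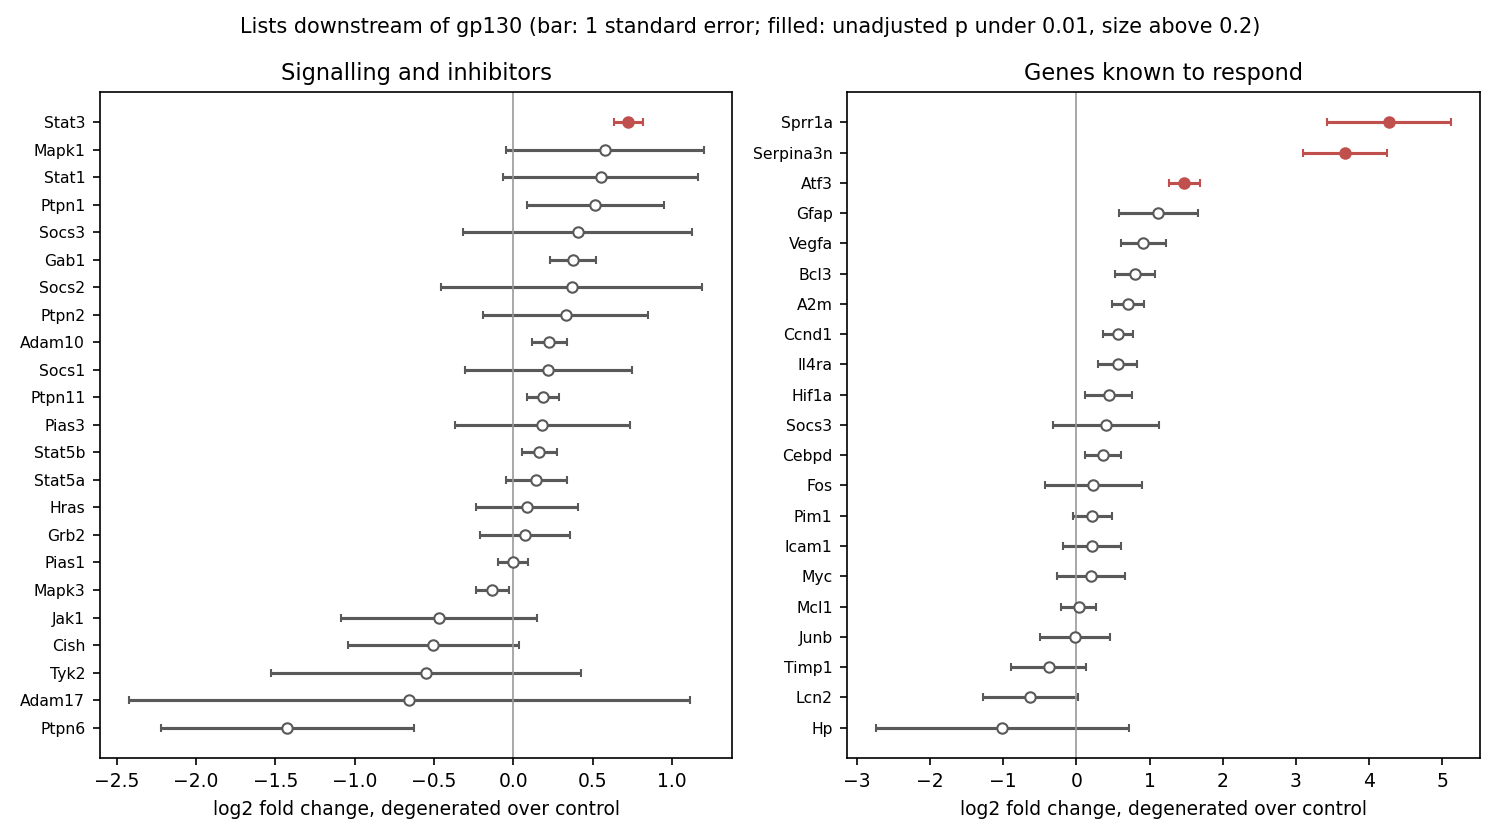
Log2 fold change, degenerated over control, with bars of 1 SE, of the 23 tested signalling genes and inhibitors (left) and the 21 tested response genes (right). Filled points mark the genes called: Stat3 (0.73) on the left, and Sprr1a (4.27), Serpina3n (3.67) and Atf3 (1.48) on the right.

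By pattern over the 6 libraries, the genes most like Il11, the member with the smallest p, were Lox, Gm37240 and Plekha1. Likeness was the root mean square distance of log2(CPM + 1) deviations from the gene's own mean, 0.0257 for Lox, 0.0851 for Gm37240 and 0.102 for Plekha1. The added 1 CPM shrinks the deviations of a gene as low as Il11, so likeness here does not mean an equal fold change. The log2 fold change was 1.17 for Lox, 1.52 for Gm37240 and 1.09 for Plekha1, against 1.83 for Il11. Lox encodes lysyl oxidase, which crosslinks collagen, and it had 206, 182 and 179 CPM in control and 387, 457 and 434 CPM in degenerated libraries.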

How the data were processed

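RNA-seq was done on 3 control and 3 degenerated libraries, grouped by the labels. The authors aligned reads with Hisat2 and evaluated expression with StringTie, per the study's methods, while the submitters' processing notes name Bowtie 0.12.2, mm8 and mm10. How reads were counted is stated in none of the sources. The deposited values are raw counts per Ensembl transcript, whole numbers without normalization, for 65535 rows. Of these, 65272 matched GENCODE M21 (GRCm38), and the other 263, with 0.125% of counts, were left out. The rows hold 46.0% of annotated transcripts, so counts summed per gene can miss a part of it. With its header line, the table is exactly as long as an older spreadsheet format allows, so it may be cut, and a gene without a row may still have had reads. Library totals and CPM then refer to the listed rows.

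The robust quasi-likelihood F test of edgeR 4.0.16 (R 4.3.3) was applied to genes and, separately, to transcripts after filterByExpr and TMM, without covariates, with Benjamini-Hochberg adjustment over all features tested. The SE is the log2 fold change over the square root of F. CPM use TMM factors, and TPM the annotated transcript lengths. Steps were tested on simulated data. Counting error alone limits a gene at 0 counts, read as up to 3 counts. Replicates had Pearson correlations of 0.913 to 0.948 on log2 CPM.

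Alternatives were DESeq2 1.42.0, limma-voom (limma 3.58.1), RLE normalization, no filter, a mean of at least 10 counts, a replicate block, protein-coding transcripts alone, and each library left out. Named were all members and their transcripts, the other listed genes of the family (results for 1 gene are not reported here), called genes of the signalling and response lists (at most 8 each), and the 3 genes most like the member of smallest p. Members and lists were chosen with earlier results of these data known.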

Additional observations from a re-analysis of the deposited data

How the results depend on the processing

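The number of genes called higher, 284, became 479 with DESeq2 and 160 with the replicate number as a block, and ranged from 144 to 339 when 1 library was left out. Genes called lower, 101, became 306 with DESeq2 and 58 with the block, and ranged from 76 to 158. Transcripts called higher, 296, became 657 with DESeq2 and 138 with the block, and transcripts called lower, 170, became 555 and 83. The 2 called members became 3 with DESeq2 (Lifr added) and 1 without control 1 or degenerated 2, where Lif lost its call, and ranged from 1 to 2 when 1 library was left out. With the block, calls of Il11-201 (1.79, p of 0.0141) and Il11ra1-204 (-2.78, p of 0.0457) were lost, and those of Il11, Lif, Stat3, Serpina3n, Sprr1a and Atf3 were kept. Same-numbered libraries had correlations of 0.160, -0.0905 and 0.0674 in their deviations from group means, so the numbers were not taken to pair the samples, and the cause of these losses was not tested.

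The sign turned for Il6st with limma-voom (0.84) and with the block (0.29), for Il6st-201 (0.87 and 0.42), and for Osm without control 2 (0.21, and between -1.48 and 0.21 without any 1 library). For Il27ra it turned with limma-voom (0.59), with the block (0.49) and without control 2 (0.47), control 3 (0.19), degenerated 1 (0.17) or degenerated 2 (0.06), and it was between -0.57 and 0.47 without any 1 library. None of these was called in any fit, and the cause was not tested. Of the values of named genes under alternatives, 206 kept their direction and side of the threshold, 3 lost a call, 2 gained a call and 9 turned. Lifr-203 gained a call with DESeq2 (-0.34) and with no filter (-0.35). Il11, Clcf1, Il6, Osmr and Socs3 had at most 50 counts in any library, which limits what their values can show.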
